A study of Mus musculus with 12 samples.

Results

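The cytosolic ribosomal protein genes are described here in germinal-vesicle (GV) oocytes of mice lacking 1 or both mitofusins, the outer-membrane proteins that fuse mitochondria. Members were taken by name, from symbols that start with Rpl or Rps and a number, Rplp0 to Rplp2 and Rpsa. The Rps6k kinases and symbols that contain -ps, as many pseudogene symbols do, were left out. This gave 80 of the 11385 genes in the count table. Of these, 79 were counted as ribosomal protein genes, 47 of the large subunit and 32 of the small subunit. They hold 74 core genes and 5 paralogs whose names end in l or l1 (Rpl22l1, Rpl36al, Rpl39l, Rpl7l1 and Rps27l). The remaining symbol, Rps19bp1, belongs to a protein that binds ribosomal protein S19 and was kept apart. All 80 passed the filter on low counts, and ribosomal protein symbols that the table does not hold, among them Rps27, were not analysed here.

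Each ribosome pairs a small subunit, which reads the mRNA, with a large subunit, which joins amino acids. Most of its proteins are needed once per ribosome, and their mRNAs typically begin with a C and a run of pyrimidines, the terminal oligopyrimidine (TOP) element, through which mTORC1 signalling controls their translation. A growing oocyte builds a store of ribosomes and of mRNAs that serves the egg and early embryo, and transcription falls silent near the end of growth.

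The study compared wild type (WT), Mfn1-/-, Mfn2-/- and Mfn1&2-/- oocytes, with 3 libraries in each group and 12 in all. All groups were of the C57BL/6J strain, and the animals were 21 to 23 days old and had not been hormonally primed. Each library came from total RNA of a pool of 50 oocytes from which cumulus cells had been stripped by pipetting. The labels name neither the promoter of any Cre recombinase nor the alleles, and they do not say whether pools came from separate animals, so p-values measure the spread between these pools. Sample descriptions also give each library a second number of unstated meaning. It equals the replicate number in the Mfn2-/- group only, and its part in the results was not tested.

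Library totals ran from 11575357 to 16024893 counts, and correlations of log CPM within groups from 0.953 to 0.979. Levels are in CPM, a gene's count relative to its library's total, scaled with TMM factors. The labels held for the targeted genes: Mfn1 lay at 14.8 to 26.4 CPM in the 6 libraries without it and at 217 to 297 in the other 6, and Mfn2 lay at 9.19 to 13.5 against 64.3 to 87.2. Oocyte markers summed to 13375 CPM or more in every library, with 14 of 15 measured. Of 22 granulosa and cumulus markers 15 were measured, and they summed to 1039 CPM in WT replicate 3 against 507 to 607 in the other 11 libraries. WT replicate 3 held the highest value of 11 of these 15 markers. None of 5 theca markers was in the table, and 2 of 8 markers of endothelium, blood and immune cells were, with summed levels of 93.1 to 152 CPM. In pools of whole cells, a lower level can mean fewer cells of a type or less RNA per cell, and these cannot be told apart.

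In WT oocytes the 79 ribosomal protein genes had a median level of 37.6 CPM per kilobase of transcript, against 9.27 over the 11292 genes that could be placed in the annotation, and 75 of the 79 lay above that median. The levels spanned 61.6-fold from the highest to the lowest member. At the top stood Rpl37, a small zinc-binding protein of the large subunit, with 298 ± 55.2 CPM per kilobase (SD, n = 3). Next came Rpl5, which carries the smallest ribosomal RNA into the large subunit, with 218 ± 27.6. At the bottom were Rps27l with 5.26 ± 1.90, Rpl22l1 with 4.98 ± 1.58 and Rps3, a protein at the entry of the mRNA channel, with 4.83 ± 0.817 CPM per kilobase. These 3 also overlapped in their spread. The order rests on annotated transcript lengths, which run from 271 to 3706 nucleotides among the members, and Rps3 had a long annotated transcript of 1908 nucleotides.

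**Figure D1:**
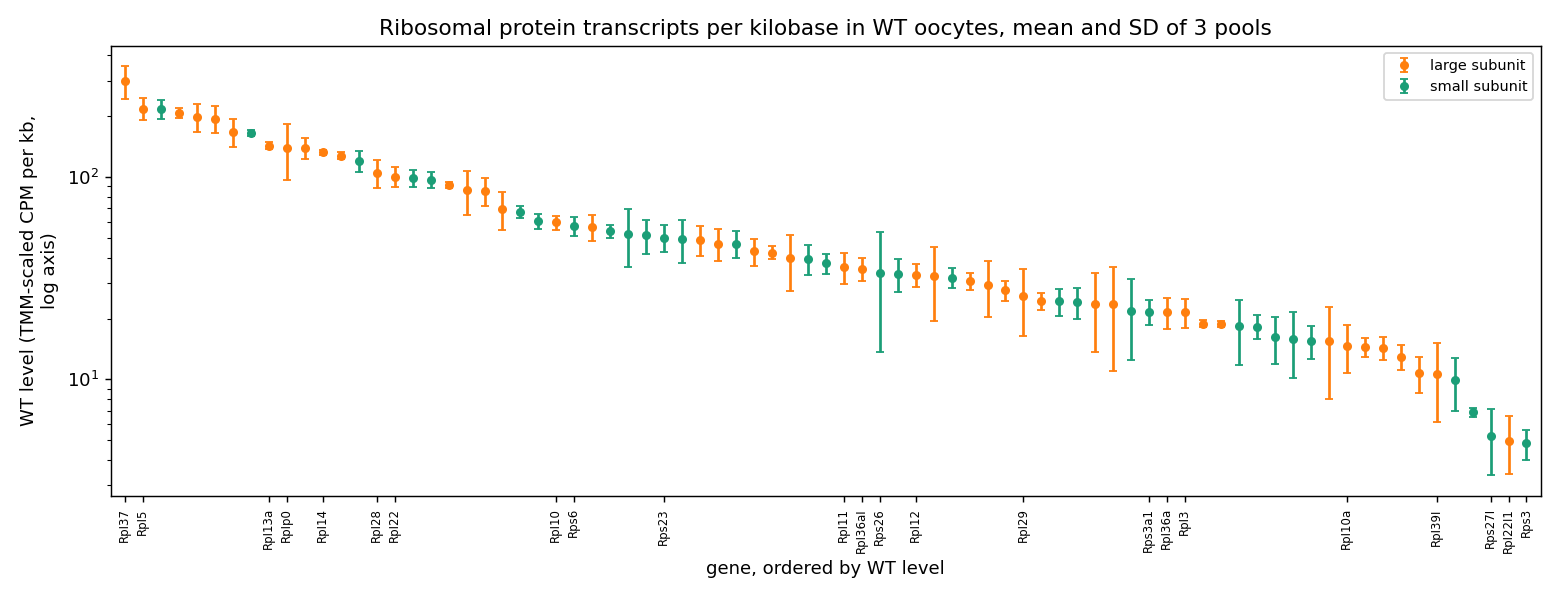
WT level of each of the 79 ribosomal protein genes in TMM-scaled CPM per kilobase (log axis), as the mean and SD of 3 pools, with genes ordered by level, coloured by subunit and labelled for some genes that the text names. Rpl37 is highest at 298 and Rps3 lowest at 4.83, and members of both subunits are spread over the whole order.

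Beside the members, near-identical copies limit what a count means. A coding sequence could be read for 78 of the 79 genes. Of these, 75 had 1 or more annotated pseudogenes that matched at least 50% of it at 90% identity or more, and 35 had 10 or more. The gene left without a coding sequence, Rps4y2, was found under the name Rps4l and is itself annotated as a transcribed pseudogene. The naming rule kept it, and it is counted among the 79 as a core gene of the small subunit. The sources used here do not state how a read with several matches was counted, and every level below is uncertain to that extent. In Mfn2-/- against WT, the genes with 1 to 9 pseudogenes had a median log2 fold change of -0.33 and those with 10 or more -0.32, with 11 called lower in each class.

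Summed over all 79 genes, ribosomal protein transcripts were scarcest in the Mfn2-/- pools. The WT pools summed to 4085, 4415 and 4337 CPM and the Mfn1-/- pools to 3781, 3943 and 3629.5 CPM. The Mfn2-/- pools summed to 3250.3, 3174 and 3242 CPM, and the Mfn1&2-/- pools to 4278, 3817 and 3983 CPM. All 3 Mfn2-/- pools lay below each of the other 9, while the double mutant pools overlapped both WT and Mfn1-/-. As a share of counts, the genes took 0.322% to 0.330% of each Mfn2-/- library and 0.368% to 0.434% of each of the others. The split by subunit was alike. Large subunit genes summed to 3023 ± 137 CPM in WT, 2640.3 ± 135 in Mfn1-/-, 2201 ± 17.2 in Mfn2-/- and 2857 ± 177 in Mfn1&2-/- (SD, n = 3 each). Small subunit genes summed to 1255 ± 35.5, 1144 ± 37.8, 1021 ± 28.0 and 1169 ± 56.3 CPM in the same order. The summed level is a description over chosen genes and was given no test.

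**Figure D2:**
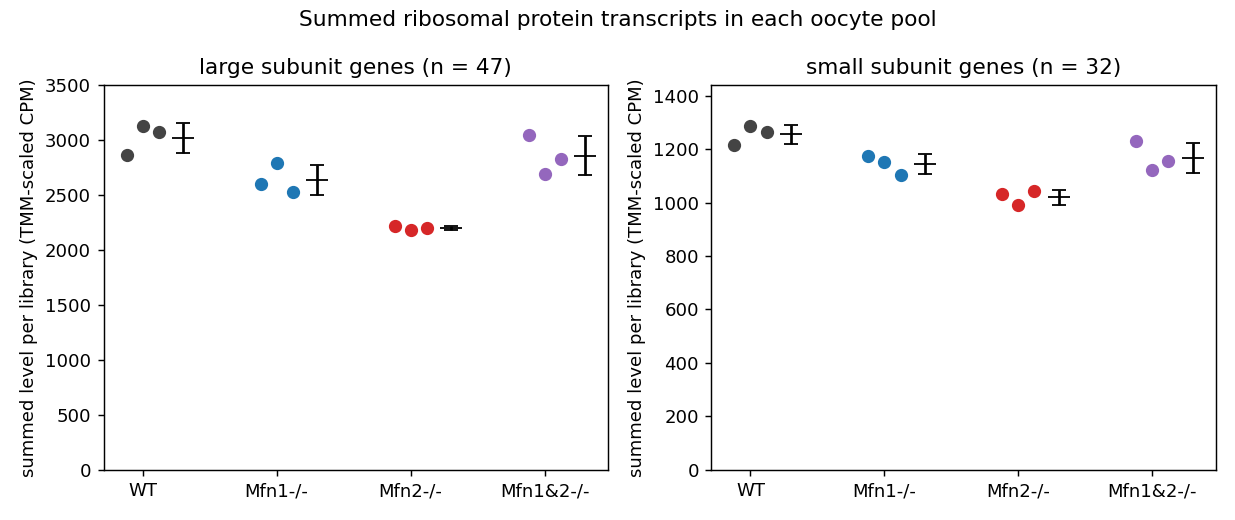
Summed TMM-scaled CPM of the 47 large subunit genes (left) and 32 small subunit genes (right) in each of the 12 pools (points), with the mean and SD of each group (black bars, n = 3). The 3 Mfn2-/- pools are the lowest in both panels, at 2185 to 2219 CPM for large and 989 to 1043 CPM for small subunit genes.

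Of the 7 comparisons, Mfn2-/- against WT had the highest count of members called lower. In it, 22 of the 79 genes were called lower and 1 higher by edgeR's quasi-likelihood test at a Benjamini-Hochberg adjusted p under 0.05 over all 11385 genes (called, from here on). Of all genes, 11.4% were called in this comparison, 6.87% lower and 4.52% higher, against 27.8% of the members lower. The median log2 fold change was -0.33 for the members and 0.01 for all genes. Large subunit genes had 15 lower and 1 higher of 47, with a median of -0.34, and small subunit genes had 7 lower of 32, with a median of -0.33. The 22 ran from -1.85 to -0.54 on the log2 scale, and for each of them all 3 Mfn2-/- pools lay below all 3 WT pools. Non-overlap in that direction held for 15.9% of all genes and for 38 of the 79 members. The members other than these 22 had a median of -0.18, and estimates that were not called ran from -0.94 for Rps2 to 0.87 for Rpl10a. Without WT replicate 3, the library with the high granulosa markers, 18 members were called, 17 of them lower, and all 18 were among the 23 above. Of the 15 granulosa and cumulus markers 6 were called lower in this comparison. The 15 had a median log2 fold change of -0.53, with 12 below 0 and 3 above. They summed to 598 to 1039 CPM in WT and 507 to 607 CPM in Mfn2-/-. Of the 14 oocyte markers 4 were called higher. The part of other cells in the result was otherwise not tested.

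Among large subunit proteins, Rpl37 showed the clearest fall. It stood at 199.7, 291 and 254 CPM in the WT pools, 207, 231 and 184 in Mfn1-/-, 78.2, 78.4 and 84.8 in Mfn2-/- and 230.5, 207 and 229 in Mfn1&2-/-. The Mfn2-/- pools were far below the other 9, which overlapped each other. Rpl37 was at 32.4% of its WT mean in Mfn2-/-, a log2 fold change of -1.63 ± 0.13 (SE; edgeR adjusted p = 1.64e-06). Rpl28, another large subunit protein, behaved alike. Its levels were 66.0, 89.9 and 86.4 CPM in WT, 41.4, 70.5 and 75.4 in Mfn1-/-, 24.3, 26.8 and 27.2 in Mfn2-/- and 78.1, 71.3 and 68.9 in Mfn1&2-/-. The single low Mfn1-/- pool, replicate 1, still lay above every Mfn2-/- pool, and the fold change against WT was -1.63 ± 0.19 (edgeR adjusted p = 9.88e-05). Rpl14 stood at 138, 131 and 132 CPM in WT, 109, 125 and 110.3 in Mfn1-/-, 58.5, 50.2 and 62.9 in Mfn2-/- and 131, 91.1 and 95.1 in Mfn1&2-/-. Every pool of the other groups lay above the Mfn2-/- pools, and the log2 fold change was -1.23 ± 0.14 (edgeR adjusted p = 5.62e-05).

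The stalk of the large subunit, which receives the elongation factors, is built on Rplp0 with Rpl12 at its base, and both genes fell. Rpl12 lay at 36.7, 39.1 and 47.0 CPM in WT, 35.2, 36.2 and 32.8 in Mfn1-/-, 15.2, 15.4 and 14.6 in Mfn2-/- and 39.3, 37.9 and 42.5 in Mfn1&2-/-. The Mfn2-/- pools were tight and separate from all others, at 36.8% of the WT mean (log2 fold change -1.44 ± 0.15, edgeR adjusted p = 2.37e-05). Rplp0 lay at 122, 217 and 231 CPM in WT, 137, 132 and 158 in Mfn1-/-, 94.1, 74.8 and 74.2 in Mfn2-/- and 180.5, 135 and 149 in Mfn1&2-/-. Its WT pools were widely spread, but the lowest of them was above the highest Mfn2-/- pool (log2 fold change -1.23 ± 0.19, edgeR adjusted p = 0.000951). Rplp1 and Rplp2, the acidic proteins that complete the stalk, were chosen for naming with their values known, because they belong to the same structure. Neither was called in any comparison, and their log2 fold changes in Mfn2-/- against WT were -0.34 ± 0.13 and -0.20 ± 0.18.

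Rpl5 and Rpl11, which travel together to the large subunit with its smallest RNA and also bind the p53 regulator Mdm2, both fell but by different amounts. Rpl5 stood at 510.2, 403 and 425 CPM in WT, 319.9, 392 and 356 in Mfn1-/-, 296, 319.7 and 303 in Mfn2-/- and 432, 381 and 430.1 in Mfn1&2-/-. Its Mfn2-/- pools reached 68.6% of the WT mean and came close to the lowest Mfn1-/- pool. Rpl11 stood at 28.3, 35.9 and 25.6 CPM in WT, 26.6, 36.3 and 30.1 in Mfn1-/-, 13.6, 14.8 and 14.3 in Mfn2-/- and 38.1, 28.6 and 31.3 in Mfn1&2-/-, with the Mfn2-/- pools apart from the rest at 47.5% of WT. The log2 fold changes against WT were -0.54 ± 0.10 for Rpl5 (edgeR adjusted p = 0.00385) and -1.07 ± 0.18 for Rpl11 (edgeR adjusted p = 0.00194). Rpl11 and Rpl22 lie on chromosome 4, as does Mfn2, at distances of 11.82 and 4.42 Mb from it. Rpl23a, at the exit of the peptide tunnel, fell by 1.22 ± 0.25 on the log2 scale (edgeR adjusted p = 0.00528).

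Small subunit genes that fell included Rps23, part of the decoding centre, Rps26, at the exit of the mRNA channel, Rps3a1, and Rps6, the target of kinases downstream of mTORC1. Rps23 stood at 42.1, 43.7 and 55.1 CPM in WT, 28.7, 31.7 and 34.4 in Mfn1-/-, 20.6, 19.8 and 18.7 in Mfn2-/- and 36.5, 32.5 and 33.8 in Mfn1&2-/-. Both Mfn1-/- and Mfn1&2-/- pools lay between WT and Mfn2-/- without overlap, and the log2 fold change of Mfn2-/- against WT was -1.25 ± 0.15 (edgeR adjusted p = 0.000125). Rps26 had the lowest estimate of all members, -1.85 ± 0.36 (edgeR adjusted p = 0.00448), with 12.7, 38.2 and 17.7 CPM in WT, 22.2, 18.0 and 14.9 in Mfn1-/-, 7.12, 5.48 and 6.43 in Mfn2-/- and 12.4, 14.0 and 24.1 in Mfn1&2-/-. WT replicate 2 was the highest of the 12 pools, and no pool outside Mfn2-/- was as low as those of Mfn2-/-. Rps6 fell by 0.79 ± 0.16 on the log2 scale (edgeR adjusted p = 0.00629).

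The other 10 genes called lower, given here to account for every call, were Rpsa, Rpl19, Rpl13a, Rps13, Rpl36al, Rpl27, Rpl22, Rpl13, Rpl36 and Rps12. Their log2 fold changes lay between -1.33 ± 0.31 for Rpl27 and -0.54 ± 0.12 for Rpl13a, and the largest edgeR adjusted p among them was 0.0376 for Rps12. The 1 member that rose was Rpl10, a late-joining protein close to the peptidyl transferase centre. It stood at 43.4, 49.3 and 50.5 CPM in WT, 39.9, 45.0 and 44.9 in Mfn1-/-, 83.2, 69.0 and 66.3 in Mfn2-/- and 47.1, 48.3 and 46.6 in Mfn1&2-/-. The Mfn2-/- pools lay above all 9 others, at 152% of the WT mean (log2 fold change 0.61 ± 0.13, edgeR adjusted p = 0.00682).

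**Figure D3:**
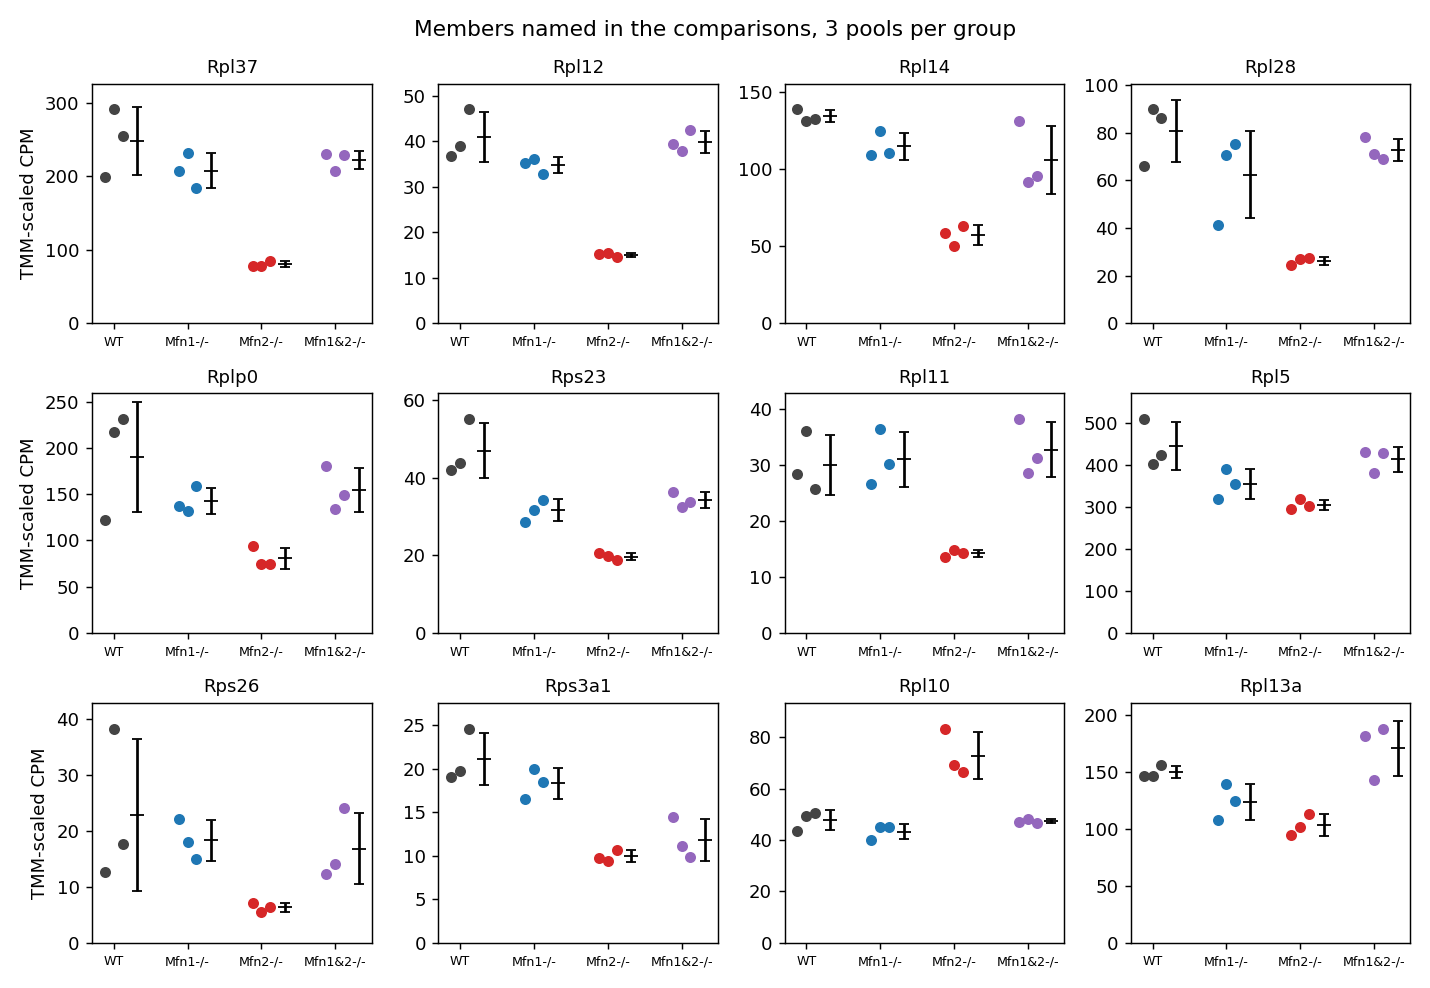
TMM-scaled CPM of 12 named members in each pool (points, 3 per group) with the mean and SD of each group (black bars, n = 3), each panel starting at 0. Rpl37, Rpl12, Rpl14, Rpl28, Rplp0, Rps23, Rpl11 and Rps26 are lowest in the 3 Mfn2-/- pools, Rpl10 is highest there, and Rps3a1 is low in both groups without Mfn2.

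Mfn2-/- pools were also compared with Mfn1-/- pools, a comparison that shares the Mfn2-/- libraries with the one above. Here 20 members were called lower and 2 higher, beside 13.3% called of all genes, 6.84% lower and 6.46% higher. The member median was -0.17. Of the 22 genes lower against WT, 18 were lower against Mfn1-/- too. Rpl37 had a log2 fold change of -1.37 ± 0.13 (edgeR adjusted p = 8.86e-06), Rpl12 had -1.20 ± 0.15 and Rps13, which joins early in small subunit assembly, had -0.80 ± 0.18 (edgeR adjusted p = 0.00897). The genes higher were Rpl10 at 0.75 ± 0.13 and Rpl10a, a protein of the other stalk of the large subunit, at 1.29 ± 0.28 (edgeR adjusted p = 0.00796). Rpl10a lay at 13.9, 8.94 and 9.19 CPM in WT, 9.02, 7.08 and 7.91 in Mfn1-/-, 23.1, 22.1 and 13.5 in Mfn2-/- and 6.99, 10.7 and 12.5 in Mfn1&2-/-, so that Mfn2-/- overlapped WT.

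Loss of Mfn1 alone left no member called. Of all genes, 0.228% were called in Mfn1-/- against WT by edgeR (0.158% lower and 0.0703% higher), 0 of the 79 members passed, and 6 had an unadjusted p under 0.05. DESeq2 called 1 member, Rps23, at a log2 fold change of -0.57 ± 0.16 (DESeq2 adjusted p = 0.0289). The member median was -0.17 against -0.01 for all genes, and 63 of the 79 estimates were below 0 (79.7%), beside 51.3% of all genes. In 15 members all Mfn1-/- pools lay below all WT pools, a share of 19.0% beside 8.84% of all genes lower without overlap. All 15 granulosa and cumulus markers were below 0 in Mfn1-/- against WT too. Of these markers 0 were called by edgeR, and 7 had an unadjusted p under 0.05. The part of other cells in the member shift was not tested.

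Loss of Mfn2 in oocytes that also lacked Mfn1 left 2 members called. Mfn1&2-/- against Mfn1-/- shares no library with Mfn2-/- against WT. In it 1 of the 79 was higher and 1 lower, beside 5.36% called of all genes (2.76% higher and 2.6% lower), and the member median was 0.09. None of the 22 genes lower in Mfn2-/- against WT was called lower here, beside 70 of the 782 genes lower there over the whole table, or 8.95%. Of the 22, 9 had an estimate below 0 (40.9%), and of the 782, 420 had one (53.7%). The 2 estimates had the same sign in 44.3% of the members and in 53.5% of all genes, and across the members they had a Pearson r of 0.06 and a Spearman rho of 0.12. Across all genes r was 0.43 and rho 0.15, so the ranks differed far less between members and all genes than r did. The 32 small subunit genes alone had r of 0.49 and the same sign in 56.2%, and the 47 large subunit genes had r of -0.14 and the same sign in 36.2%. Genes are not independent replicates, and these values describe the estimates only. Rpl13a, a large subunit protein also known from translational silencing, was called in opposite directions. It stood at 147, 147 and 156 CPM in WT, 108, 139.7 and 124 in Mfn1-/-, 95.0, 101 and 114 in Mfn2-/- and 182, 143 and 188 in Mfn1&2-/-. It was higher in all Mfn1&2-/- pools than in any Mfn1-/- pool (log2 fold change 0.46 ± 0.12, edgeR adjusted p = 0.0369). That call was lost without any 1 of 5 libraries (Mfn1-/- replicates 1 and 3, Mfn2-/- replicate 3, and Mfn1&2-/- replicates 1 and 3) and with library size as the only scaling. Rpl29, the gene called lower, lay at 18.5, 18.6 and 15.1 CPM in Mfn1-/- and 2.86, 4.54 and 11.2 in Mfn1&2-/- (log2 fold change -1.49 ± 0.40, edgeR adjusted p = 0.0409). It has 61 near-identical pseudogenes, and the call was lost without any 1 of 6 libraries, which were all 3 of Mfn1-/-, Mfn2-/- replicate 3 and Mfn1&2-/- replicates 1 and 2.

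**Figure D4:**
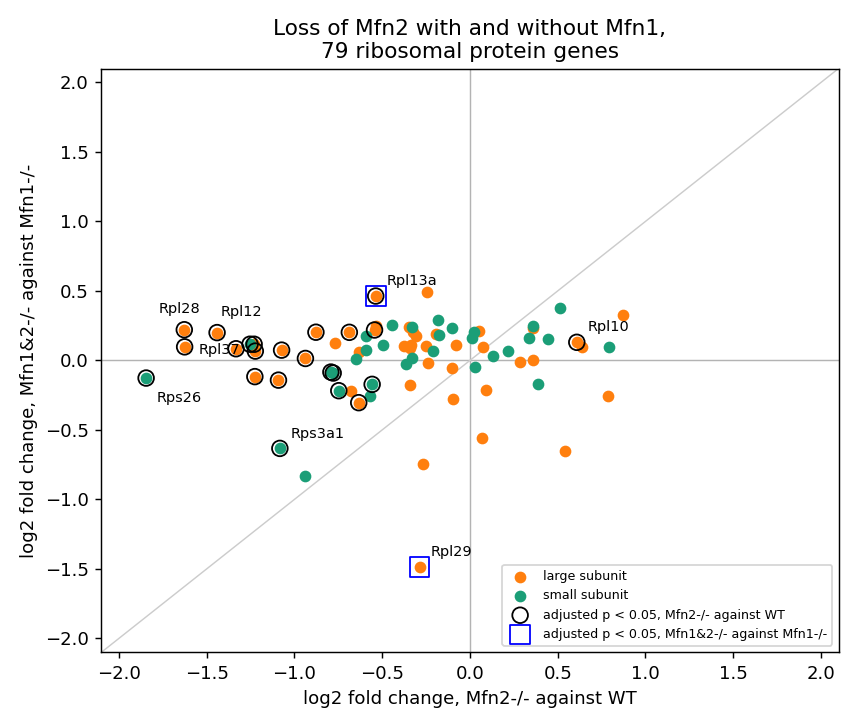
Log2 fold change of each of the 79 ribosomal protein genes on loss of Mfn2 in oocytes with Mfn1 (horizontal axis, Mfn2-/- against WT) and without it (vertical axis, Mfn1&2-/- against Mfn1-/-), with called genes ringed or boxed and a diagonal where both would be equal. The 22 genes called lower on the horizontal axis lie between -1.85 and -0.54 there, and none of them was called lower on the vertical axis.

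Between the double mutant and WT few members were called. In Mfn1&2-/- against WT, 1 of 79 members was called, and it was lower, beside 4.21% called of all genes (2.11% lower and 2.1% higher). The member median was -0.11. That gene was Rps3a1, a protein of the small subunit at the mRNA exit, with 19.1, 19.7 and 24.6 CPM in WT, 16.5, 19.9 and 18.5 in Mfn1-/-, 9.79, 9.38 and 10.7 in Mfn2-/- and 14.5, 11.1 and 9.84 in Mfn1&2-/-. It was the 1 member for which all 6 libraries without Mfn2 lay below all 6 with it, a pattern found in 1.49% of all genes, and no member lay above in all 6, beside 2% of all genes. Its log2 fold change against WT was -0.84 ± 0.21 in Mfn1&2-/- (edgeR adjusted p = 0.0286) and -1.08 ± 0.21 in Mfn2-/- (edgeR adjusted p = 0.00386). The double mutant call was lost without any 1 of 4 libraries (WT replicates 2 and 3, Mfn1&2-/- replicates 2 and 3), with an edgeR adjusted p of 0.0579 to 0.119. Leaving out 1 library at a time gave 0 to 3 called members, and DESeq2 called 3, Rps3a1 with Rpl29 and Rpl3. Of the 79 estimates in Mfn1&2-/- against WT, 59 were below 0 (74.7%), beside 49.6% of all genes. Of the 15 granulosa and cumulus markers 4 were called lower here, and the part of other cells was not tested.

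Set against Mfn2-/-, the double mutant had 18 members higher and 4 lower, beside 10.2% called of all genes, 6.14% higher and 4.08% lower. The member median was 0.22. Of the 22 genes lower in Mfn2-/- against WT, 16 were higher in Mfn1&2-/- than in Mfn2-/-, a comparison that uses the same Mfn2-/- pools. Rpl37 had a log2 fold change of 1.47 ± 0.13 (edgeR adjusted p = 8.68e-06), Rpl12 of 1.40 ± 0.15 and Rpl28 of 1.48 ± 0.19. Rpl7a, which was not called against WT, rose by 0.53 ± 0.12 (edgeR adjusted p = 0.0105). The 4 lower were Rpl10 (-0.62 ± 0.13), Rpl3, whose protein lines the peptidyl transferase centre (-0.74 ± 0.18), Rpl10a (-0.96 ± 0.28, edgeR adjusted p = 0.0418) and Rpl37a (-0.96 ± 0.29, edgeR adjusted p = 0.0467). Of the 12 fits that each left out 1 library, the call of Rpl37a was lost in 10, that of Rpl10a in 6 and that of Rpl3 in 3, and the first pair was also lost with the replicate number as a block. Rpl3 stood at 31.2, 31.0 and 28.8 CPM in Mfn2-/- and 17.3, 15.7 and 21.4 in Mfn1&2-/-, also below the 23.8, 29.9 and 33.2 of WT. Without Mfn2-/- replicate 2 the count of called members was 13, 12 higher and 1 lower, and Rpl7a, Rps6, Rpl3, Rpl10a and Rpl37a were among those that lost their calls.

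The interaction term tested whether losing Mfn2 had the same effect with and without Mfn1. It is the log2 fold change of Mfn1&2-/- against Mfn1-/- minus that of Mfn2-/- against WT. All 12 called members were above 0, 11 of the large subunit and 1 of the small, beside 4.13% of all genes called, 2.92% above 0 and 1.2% below. The member median was 0.39 against -0.01 for all genes. Rpl28 had 1.85 ± 0.27 (edgeR adjusted p = 0.0022), Rpl37 had 1.72 ± 0.18 (edgeR adjusted p = 0.000133), Rpl12 had 1.64 ± 0.20 (edgeR adjusted p = 0.000751) and Rps23 had 1.37 ± 0.21 (edgeR adjusted p = 0.0034). Rpl14 had 1.11 ± 0.19 and Rpl13a had 1.00 ± 0.17, both with an edgeR adjusted p of 0.00696. Each of these 12 was also called lower in Mfn2-/- against WT, which is one of the terms of the interaction. For 10 of the 22 genes that fell in Mfn2-/-, the interaction was not called, which does not show that the effect was equal in both backgrounds.

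Starts of these genes were read from RefSeq promoter sequences (GRCm38.p6), which held 60 of the 80 members, 59 of them ribosomal protein genes. A C at most 5 bases from the annotated start and followed by at least 4 pyrimidines (C or T, on the coding strand) was found in 26 of the 59, or 44.1%, against 19.8% of 8500 other genes of the table and 18.3% of all 32851 promoters. The windows below, 30 bases around the annotated start and read along the coding strand, belong to the 8 genes with the largest falls in Mfn2-/- against WT and to Rpl10, the gene that rose. They show that the called genes include starts with and without this run, which is in capitals.
Rps26: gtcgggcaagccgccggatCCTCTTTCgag
Rpl12: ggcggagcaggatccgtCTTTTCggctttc
Rpl28: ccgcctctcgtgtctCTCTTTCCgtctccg
Rpl14: gggcgggccctctctCTTCTCgctgagcgc
Rps23: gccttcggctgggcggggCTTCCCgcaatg
Rpl37: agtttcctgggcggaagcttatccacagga
Rpl27: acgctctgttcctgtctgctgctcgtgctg
Rplp0: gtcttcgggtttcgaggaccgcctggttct
Rpl10: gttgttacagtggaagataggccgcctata
In the order printed, these lie at chr10:128626492-128626521, chr2:32961697-32961726, chr7:4792950-4792979, chr9:120571502-120571531, chr13:90923107-90923136, chr15:5116598-5116627, chr11:101442230-101442259, chr5:115559452-115559481 and chrX:74270801-74270830, all on the plus strand except Rps26 on the minus strand. Genes with the run had 8 of 26 called lower in Mfn2-/- against WT and a median of -0.30, and genes without it had 12 of 33 called lower and a median of -0.33. In the interaction, 5 and 6 genes of these classes were called. The motif CCGGAA, searched on both strands from 250 bases before to 50 after the start, was in 50.8% of the 59 and in 28.6% of other genes of the table. A match describes letters near an annotated start and is not evidence of the start used in oocytes.

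Of the 5 paralogs, 1 was called in any comparison by edgeR. It was Rpl36al, a near copy of Rpl36a. It stood at 19.8, 20.2 and 15.8 CPM in WT, 18.7, 19.7 and 14.9 in Mfn1-/-, 9.45, 9.13 and 11.7 in Mfn2-/- and 23.8, 19.5 and 18.2 in Mfn1&2-/-. The Mfn2-/- pools were below all others (log2 fold change against WT -0.88 ± 0.20, edgeR adjusted p = 0.0125), and per kilobase it was above Rpl36a in WT, with 35.3 ± 4.62 against 21.5 ± 3.83. Rpl36a itself had -0.54 ± 0.26 and was not called. Rpl22 fell in Mfn2-/- against WT (-0.63 ± 0.15, edgeR adjusted p = 0.0129), while Rpl22l1, which can take its place in the ribosome, had -0.27 ± 0.50. Rpl22l1 lies on chromosome 3, 3.72 Mb from Mfn1, and held 1.09 to 3.67 CPM over the 12 libraries. Its level in WT was 4.98 ± 1.58 CPM per kilobase beside 101 ± 11.6 for Rpl22. Rpl39l, the germ-cell form of Rpl39, had 0.78 ± 0.32 and Rpl39 had 0.64 ± 0.26, neither called. Per kilobase in WT, Rpl39l stood at 10.7 ± 4.53 and Rpl39 at 32.3 ± 12.8. Rpl7l1 and Rpl7 had -0.09 ± 0.24 and 0.09 ± 0.15. Rps27l had 0.79 ± 0.54 at 1.07 to 5.06 CPM, and its core gene Rps27 was not analysed here.

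Ribosomal protein mRNAs are short, with a median of 751 nucleotides against 2882 over all placed genes. Other genes of under 600 nucleotides had a median log2 fold change of -0.01 in Mfn2-/- against WT, and the 28 members of that length had -0.28. From 600 to under 900 nucleotides the medians were 0.07 for 425 other genes and -0.35 for 27 members. The spread within groups was near that of all genes. The median coefficient of variation of the members was 15.6% in WT, 15.2% in Mfn1-/-, 11.9% in Mfn2-/- and 15.1% in Mfn1&2-/-, beside 13.0% to 15.8% over all genes. Rps19bp1, which is no ribosomal protein, lay between 6.43 and 17.3 CPM and had a log2 fold change of 0.20 ± 0.36 in Mfn2-/- against WT, with no call in any comparison.

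Other genes of ribosome production and use were read from 9 lists of 211 genes in all. In Mfn2-/- against WT, 20 of the 211 were lower and 6 higher, or 12.3% called beside 11.4% of all genes. Lower calls made up 9.48% beside 6.87% of all genes, and the median of the 211 was -0.03. Of 19 elongation factors and other genes with TOP mRNAs, 3 fell and 1 rose. Eef1b2, an exchange factor of elongation, fell by 0.51 ± 0.14, the histone chaperone Nap1l1 fell by 0.50 ± 0.14 and the helicase Eif4a2 fell by 0.43 ± 0.14. Eef1a1, which brings aminoacyl-tRNA to the ribosome, rose by 0.28 ± 0.08.

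Assembly factors, which build the subunits and then leave them, were called in Mfn2-/- against WT at about the rate of all genes, which was 11.4%. Of 43 small subunit assembly genes 5 fell and none rose (11.6% called), and of 47 large subunit assembly genes 4 fell and 1 rose (10.6% called). Called lower were 11.6% of the small and 8.51% of the large subunit assembly genes, beside 6.87% of all genes. Emg1, a methyltransferase of the small subunit RNA, fell by 1.06 ± 0.15 (edgeR adjusted p = 0.000465), with 90.7, 85.4 and 67.3 CPM in WT and 38.0, 36.6 and 41.8 in Mfn2-/-. The kinase Riok1 fell by 0.68 ± 0.13 and the GTPase Bms1 fell by 0.46 ± 0.10. Rsl24d1, a placeholder for a large subunit protein during assembly, rose by 0.61 ± 0.09 (edgeR adjusted p = 0.000777). Of 29 genes of RNA modification and the nucleolus 4 fell, among them Trmt112 (-0.78 ± 0.16) and Nolc1 (-0.53 ± 0.12), and of 14 RNA polymerase I genes 0 were called by edgeR or by DESeq2, with 0 at an unadjusted p under 0.05.

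In the mTORC1 list of 28 genes, 2 rose and 1 fell in Mfn2-/- against WT, or 10.7% called beside 11.4% of all genes. Ddit4, a stress-induced inhibitor of mTORC1, stood at 35.1, 39.5 and 26.1 CPM in WT, 72.4, 69.9 and 79.8 in Mfn2-/- and 47.4, 52.5 and 62.6 in Mfn1&2-/-. Both groups without Mfn2 were above WT, by 1.14 ± 0.16 (edgeR adjusted p = 0.000391) and by 0.69 ± 0.16 (edgeR adjusted p = 0.0201) on the log2 scale. Tsc2, part of the complex that restrains mTORC1, rose in Mfn2-/- by 0.60 ± 0.16 (edgeR adjusted p = 0.0234), and the cap-binding protein Eif4e fell by 0.57 ± 0.12 (edgeR adjusted p = 0.00528). Of 17 genes that watch over stalled ribosomes, 2 rose and 1 fell (17.6% called beside the same 11.4%). Ltn1, the ubiquitin ligase for stalled peptides, rose by 0.71 ± 0.11 (edgeR adjusted p = 0.000881), Hbs1l rose by 0.50 ± 0.15 and Usp10 fell by 0.34 ± 0.10. Of 14 genes listed as import factors and chaperones of ribosomal proteins, 3 fell and 0 rose, or 21.4% lower beside 6.87% of all genes. These were Ipo7 (-0.48 ± 0.15), Nap1l1, which is also among the TOP genes above, and Hgs (-0.29 ± 0.08). Hgs is an endosomal sorting protein, so its place in this list is in error and the share includes it.

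In the other comparisons that used Mfn2-/- pools, the share of the 211 genes called was near or below that of all genes. In Mfn1&2-/- against Mfn2-/-, 14 were higher and 7 lower, or 9.95% beside 10.2% of all genes. In Mfn2-/- against Mfn1-/-, 9 were higher and 14 lower, or 10.9% beside 13.3%. None of the 211 was called in Mfn1-/- against WT by edgeR, with 19 at an unadjusted p under 0.05, and DESeq2 called 1. In Mfn1&2-/- against WT, where 0.948% of the 211 and 4.21% of all genes were called, Ddit4 was higher and Nufip1, an assembly factor of RNA-modifying particles, was lower (-0.57 ± 0.15, edgeR adjusted p = 0.0464). In Mfn1&2-/- against Mfn1-/-, 8 were higher and 4 lower (5.69% beside 5.36% of all genes), among them the assembly factor Pes1 (0.59 ± 0.11, edgeR adjusted p = 0.00416) and Ubtf, a factor of RNA polymerase I (-1.25 ± 0.30, edgeR adjusted p = 0.0226). In the interaction, 7 of the 211 were called above 0 and 4 below (5.21% beside 4.13% of all genes). Emg1 had 1.39 ± 0.21, Pes1 0.98 ± 0.15 and Eif4e 0.81 ± 0.16, and Hbs1l had -1.01 ± 0.21 and Ltn1 -0.71 ± 0.15.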

How the data were processed

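Counts per gene for 12 libraries were deposited, made with FastQC 0.11.7, STAR 2.7.0a, edgeR and the mouse build mm10, per the submitters' processing notes. The sources used here state neither the annotation, nor whether strand was used, nor how reads with several matches were handled. A second table, of CPM signal that the authors scaled with TMM factors, was used only as a check and equalled TMM-scaled CPM computed from the counts to a relative difference of 5.07e-15.

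Counts were fitted with edgeR 4.0.16 in R 4.3.3 (TMM factors, filterByExpr, which kept all 11385 genes, and the quasi-likelihood test with 1 mean per group over 12 libraries, 8 residual degrees of freedom). P-values were Benjamini-Hochberg adjusted over all genes, and an adjusted p under 0.05 was called. The script was tested on simulated data. Library totals of 11575357 to 16024893 set 3 counts at 0.188 to 0.253 CPM. Symbols were placed on GENCODE vM21 transcripts (GRCm38) for 11292 genes, 574 of them by a RefSeq synonym, and pseudogene copies were found with BLAST 2.17.0.

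The members and all gene lists were chosen with earlier results of these data known. Named were the called members of each comparison (at most 12 per direction, smallest p first), each paralog with its core gene, the 3 highest and 3 lowest WT levels per kilobase, called members of the interaction (at most 6), Rps19bp1 and up to 4 called genes of each other list. A few genes that this rule names are not reported here. Alternatives were RLE scaling, library size only, DESeq2 1.42.0, no filter, at least 5 CPM in 3 libraries, a replicate block and leaving out each library.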

Additional observations from a re-analysis of the deposited data

Results flagged for a closer look

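For 12 members the effect of losing Mfn2 differed between oocytes with and without Mfn1 by the interaction term of edgeR's quasi-likelihood test (Benjamini-Hochberg adjusted over all genes, 3 pools per group). In each, the log2 fold change was higher where Mfn1 was also lost. Of all genes 4.13% were called in the interaction, 2.92% above 0 and 1.2% below. Each of the 12 was also called lower in Mfn2-/- against WT, a comparison that enters the interaction. Leaving out 1 library at a time gave 8 to 14 called members. The difference was 1.85 for Rpl28, 1.72 for Rpl37, 1.64 for Rpl12, 1.37 for Rps23 and 1.35 for Rplp0. It was 1.29 for Rpl23a, 1.15 for Rpl11, 1.11 for Rpl14, 1.08 for Rpl36al and 1.00 for Rpl13a. The lowest were 0.89 for Rpl13 and 0.76 for Rpl5. The largest adjusted p, 0.0471, was shared by Rpl23a, Rpl36al and Rpl13.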

How the results depend on the processing

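With 3 pools a group, leaving out 1 library at a time gave 0 to 0 called members in Mfn1-/- against WT, 18 to 26 in Mfn2-/- against WT, 0 to 3 in Mfn1&2-/- against WT, 0 to 2 in Mfn1&2-/- against Mfn1-/-, 13 to 24 in Mfn1&2-/- against Mfn2-/-, 16 to 24 in Mfn2-/- against Mfn1-/- and 8 to 14 in the interaction. The 13 genes named by rule as called in Mfn2-/- against WT and the 6 of the interaction were called in every such fit. DESeq2 called 1 member in Mfn1-/- against WT and 3 in Mfn1&2-/- against WT, and the filter at 5 CPM gave 2 in the latter. With library size only, Mfn1&2-/- against Mfn1-/- had 1 call, and the all-gene median of the interaction moved from -0.01 to -0.12. Under that scaling, the share of higher calls over all genes moved from 39.7% to 49.8% in Mfn2-/- against WT, from 51.5% to 38.5% in Mfn1&2-/- against Mfn1-/-, from 60.1% to 48.2% in Mfn1&2-/- against Mfn2-/- and from 70.9% to 46.3% in the interaction, where all 9 called members were above 0. No call of a named member changed direction under any alternative run. The causes of the moves were not tested.

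With the replicate number as a block, 0 members were called in Mfn1&2-/- against WT, where Rps3a1 had an edgeR adjusted p of 0.0554. The block gave 0 calls in Mfn1-/- against WT, 23 in Mfn2-/- against WT, 2 in Mfn1&2-/- against Mfn1-/-, 20 in Mfn1&2-/- against Mfn2-/-, 21 in Mfn2-/- against Mfn1-/- and 9 in the interaction. By this replicate number, 18 same-numbered pairs had correlations of deviations from -0.134 to 0.179, 4 of them above 0.1. Of 12 libraries, 7 correlated best with their own number. The second number, from the sample descriptions, is shared by some libraries of different groups. It was neither used as a block nor checked in this way.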
